A study of Cavia porcellus with 72 samples.

Results

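Far intergenic windows, the stretches of the guinea pig genome described here, are 100-base windows that were annotated as intergenic and lay more than 50 kb from the nearest transcription start site (TSS). They were taken by annotation and distance alone from the 3 tables of methylation windows, 1 for each generation. There were 43686 of them among 142171 listed windows, a share of 30.7%, at 38882 distinct positions. The F1 table held 16124 far intergenic windows of 53723, that of F2 held 13093 of 41660 and that of F3 held 14469 of 46788.

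The samples were hippocampi of juvenile female Dunkin-Hartley guinea pigs, taken on postnatal day 40. F0 mothers had been injected during pregnancy with betamethasone, a synthetic glucocorticoid (sGC), or with saline as the control. F1 animals were exposed in the womb, and F2 and F3 animals descended from them through the male line, with outside females as mothers and no further injections. By their labels, 6 control and 6 sGC animals of each generation had their DNA methylation measured, 36 samples in all, while the design text of the series gives 7 control and 5 sGC animals for F3, so that the F3 groups are uncertain. RNA of the same tissue was sequenced from 6 control and 5 sGC animals in F1, 6 and 6 in F2, and 6 and 7 in F3.

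DNA methylation is the addition of a methyl group to cytosine, in animals mostly at a C followed by a G (a CpG). Much of the DNA far from any gene is not transcribed into protein-coding RNA, but it holds enhancers, which bind transcription factors and can act on a promoter over a long distance along the chromosome. Enhancers carry the histone mark H3K4me1, and the glucocorticoid receptor, a hormone-activated transcription factor abundant in the hippocampus, binds largely at such distal sites. Stretches with no annotated gene over a very long distance are called gene deserts, and some of them hold enhancers of developmental genes.

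The probes that captured the DNA before sequencing were designed on promoters, on peaks of phosphorylated RNA polymerase II and on H3K4me1 enhancers. Promoters and enhancers of chosen genes were covered in addition. Which of the listed windows lay on a probe, and of which kind, was not analysed here. Every window in the 3 tables had a difference between sGC and control of at least 2 percentage points by the authors' own comparison. A listed window was therefore a selected window, and a window that is not listed may have differed by less or may not have been measured. Whether the listing was also limited by the p or q values of that comparison was not analysed here. Being listed is not the same as being called differentially methylated. The paper set a larger difference and a limit on the false discovery rate for its calls. It called far fewer regions in each generation than are listed, so most listed windows were not among its calls. The methylation level of each animal, the read depth and the spread between animals were not analysed here, and neither was the direction of the difference in any window. The values that follow are positions, counts and shares. The F2 table held windows on only 87 scaffolds, the assembled sequences of the genome, where those of F1 and F3 covered 910 and 970. Counts are over each table as deposited unless they are said to be on the 87 shared scaffolds. Neighbouring windows overlap and are not replicates, so none of the shares was tested.

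Intergenic windows made up the majority of each table, and about as many of them lay beyond 50 kb as within it. In F1, 15591 intergenic windows were within 50 kb of a TSS, compared with the 16124 beyond it, so that the far windows were 50.8% of 31715. The corresponding share was 51.0% of 25656 in F2 and 51.8% of 27926 in F3. Of all listed windows, those far from genes were 31.4% in F2 and 30.9% in F3, with F1 slightly lower. Intronic windows, the next class, numbered 14438 in F1, 12059 in F2 and 11974 in F3. Promoter windows were far fewer, at 2440, 1941 and 1967. A further 2613 windows in F1 and 2984 in F3 had no annotation and could not be placed.

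The 3 generations had very similar distributions of distance. In F1 the median distance to the nearest TSS was 129 kb, with quartiles at 80.1 and 231 kb. In F2 the median was 129 kb, with quartiles at 80.4 and 229 kb. In F3 it was 133 kb, with quartiles at 82.0 and 243 kb. Windows beyond 100 kb were 63.0%, 62.9% and 64.1% of the far intergenic windows of F1, F2 and F3, and those beyond 200 kb were 30.6%, 30.1% and 32.3%. Beyond 500 kb there were 956 windows in F1, 742 in F2 and 927 in F3, and on the shared scaffolds 665, 742 and 612. More than 1 Mb from any TSS annotated on the same scaffold lay 88 windows of F1, 32 of F2 and 116 of F3. On the 87 shared scaffolds these were 26, 32 and 35, so that most of the windows this remote in F1 and F3 were on scaffolds that the F2 table lacks. The medians on the shared scaffolds were 129 kb in F2 and 132 kb in F3, and the upper quartiles of F1, F2 and F3 were 228, 229 and 240 kb.

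**Figure D1:**
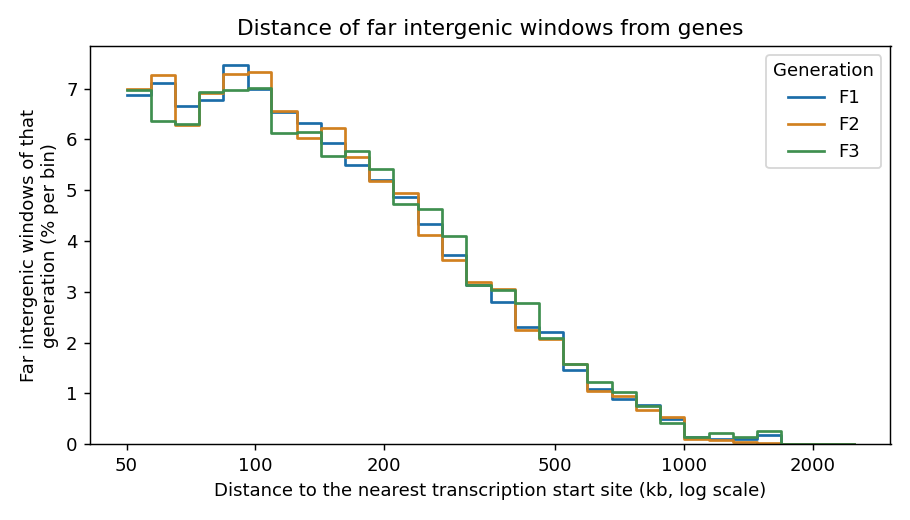
Share of the far intergenic windows of each generation (y axis, percent per bin) against distance to the nearest TSS (x axis, kb, log scale), with 1 line for each generation. The lines run together, with the medians at 129, 129 and 133 kb in F1, F2 and F3, and few windows lie beyond 500 kb.

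The 50 kb limit did not fall in a gap of the distances. The closest far intergenic windows were 50001 bases from a TSS in F1, 50008 in F2 and 50001 in F3, and the farthest windows left out were at 49989, 49978 and 49989 bases. Of the 312 intergenic windows of F1 within 1000 bases of the limit, 46.5% were beyond it. The corresponding share was 41.9% of 253 in F2 and 51.4% of 321 in F3.

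Far intergenic windows fell on either side of the nearest gene's start. Upstream of the TSS lay 8922 windows of F1, 7245 of F2 and 7990 of F3, or 55.3%, 55.3% and 55.2%. On the shared scaffolds the shares were 55.4%, 55.3% and 55.5%. Intergenic windows closer to genes leaned more to the upstream side, with 64.1%, 64.2% and 62.4%. Sequence just downstream of a TSS lies inside the gene and is not classed as intergenic, so the classes differ on that side by definition. Of intronic windows, 17.1%, 18.2% and 17.8% were upstream. Median distances upstream and downstream were 124 and 135 kb in F2 and 133 and 133 kb in F3, and the downstream median of F1 was 130 kb.

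Most far intergenic windows stood alone. Because windows were placed every 50 bases, windows that overlapped or touched were merged into regions, which gave 13019 regions in F1, 10578 in F2 and 11688 in F3, with 1.24 windows per region in each. Regions of a single window were 79.0%, 79.0% and 78.9% of them, and regions of 2 windows numbered 2414, 1958 and 2194. Only 314 regions in F1, 260 in F2 and 272 in F3 held 3 windows or more. Intergenic regions nearer to genes were alike in this, with 78.0%, 78.1% and 78.5% of a single window. In total the far intergenic regions covered 1.47 Mb in F1, 1.20 Mb in F2 and 1.32 Mb in F3. On the shared scaffolds there were 10408, 10578 and 9131 regions, and 79.1%, 79.0% and 79.0% of them were single windows.

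Neighbouring regions were usually well apart. The median gap between a far intergenic region and the next on the same scaffold was 45.5 kb in F1, 52.8 kb in F2 and 55.5 kb in F3. On the shared scaffolds it was 55.4, 52.8 and 69.8 kb. Gaps of at most 500 bases made up 6.39%, 5.49% and 5.62% of all gaps. Between intergenic regions nearer to genes, gaps that short were 6.95%, 6.32% and 7.04% of all gaps.

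The widest regions are given with their positions on cavPor3, the guinea pig genome build of the tables, since they are the longest unbroken stretches listed far from a gene. In F2, scaffold_2:20387901-20388350 joined 7 windows over 450 bases at 149 kb upstream of the nearest TSS. In F3, scaffold_297:135351-135750 joined 7 windows over 400 bases at 113 kb upstream, and scaffold_22:347451-347800 joined 6 windows at 665 kb downstream. In F1 no region held more than 5 windows, and the longest, scaffold_14:40148951-40149350, covered 400 bases at 207 kb downstream.

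The windows farthest from genes lay at a few places. In F1 the farthest was scaffold_149:2412851-2412950, 2.13 Mb downstream of the nearest TSS. The farthest of F3, scaffold_149:2384601-2384700, lay on the same scaffold at 2.10 Mb. In F2 the farthest was scaffold_5:56547701-56547800, at 1.80 Mb. Scaffold_149 could not be compared with F2, because the F2 table ended before it. The farthest window of F1 lay at the end of the 2.41 Mb that listed windows spanned on this scaffold. Distances were to a TSS on the same scaffold, so a gene beyond the end of a scaffold is not counted.

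The scaffolds of the F2 table were those numbered 0 to 86. In F1 and in F3, far intergenic windows lay on 278 scaffolds. On the 87 scaffolds of the F2 table there were 12871 far intergenic windows of F1, 79.8% of that table's, and 11282 of F3, 78.0%. A further 3253 windows of F1 and 3187 of F3 lay on scaffolds for which F2 had no window of any kind. Absence from F2 on those scaffolds says nothing about the F2 animals, and the recurrence of windows, nearest genes and CpGs across generations was therefore counted on the 87 scaffolds all tables cover. On them F1 and F2 had 12871 and 13093 far intergenic windows, and F3 had fewer.

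Density varied widely between scaffolds. Over the 199 scaffolds on which the listed windows spanned at least 1 Mb, F1 had a median of 5.52 far intergenic windows per Mb (quartiles 3.10 and 8.02) and F3 of 4.71 (quartiles 2.98 and 7.00). F2 had a median of 5.73 per Mb over its 87 scaffolds. On those 87 scaffolds the highest density was 13.7 per Mb in F1, 13.2 in F2 and 12.3 in F3. On the other 112 scaffolds the medians of F1 and F3 were 5.55 and 4.72 per Mb, but the highest values were 45.2 and 67.9, and 9 scaffolds in F1 and 8 in F3 exceeded 20 per Mb. The dense scaffolds were thus all among those without F2 values.

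Scaffold_154 was the densest in both generations. It held 98 far intergenic windows in F1, or 92.5% of the 106 windows listed there, and in F3 they were 87.0% of 169. Scaffold_147 had 44.4 per Mb in F1 and 34.4 in F3, and scaffold_149 had 26.1 and 35.6. At scaffold_154 and scaffold_149 F3 was the higher, whereas at scaffold_147 F1 was.

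**Figure D2:**
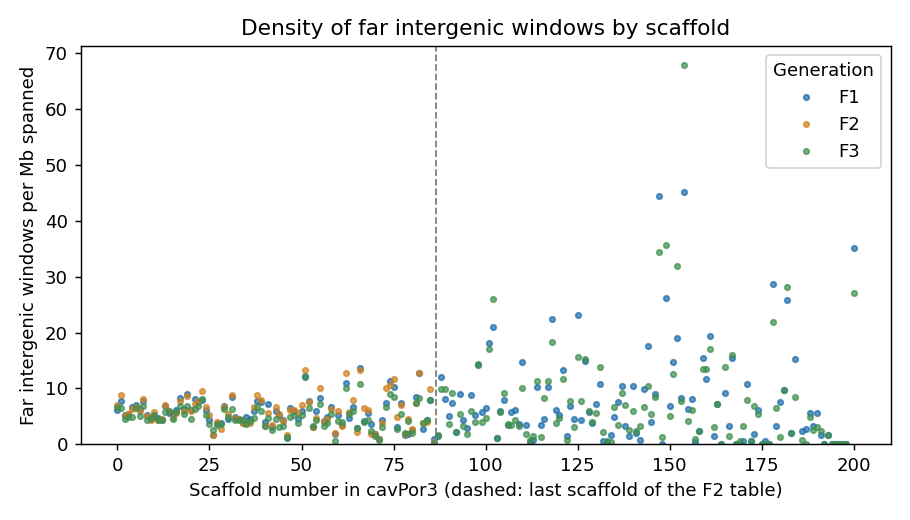
Far intergenic windows per Mb spanned (y axis) for each scaffold with at least 1 Mb spanned (x axis, scaffold number in cavPor3), with 1 point for each scaffold and generation; the dashed line marks the last scaffold of the F2 table. To the left of the line no point exceeds 13.7 per Mb, and to the right the points of F1 and F3 reach 45.2 and 67.9.

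The question for the 3 generations was whether the same far intergenic windows were listed more than once. Most were listed in 1 generation only. Of 32862 distinct positions on the 87 shared scaffolds, 28784 (87.6%) were in 1 table, 3772 (11.5%) in 2 and 306 (0.931%) in all 3. F1 and F2 shared 1640 windows, which were 12.7% of the F1 windows and 12.5% of the F2 windows. F1 and F3 shared 1529, or 11.9% and 13.6%. F2 and F3 shared 1521, or 11.6% and 13.5%. The pairs that are 1 generation apart and the pair that is 2 apart therefore had shares within a narrow range. The share that the capture design would give by itself is not known, because the windows that were measured and not listed were not analysed here.

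Windows near genes were listed again at similar rates. Of the F1 windows on these scaffolds, those listed again in F2 were 12.7% far from genes, 13.5% of intergenic windows nearer to genes, 12.4% of intronic windows, 14.1% of promoter windows, 12.1% of exonic windows and 15.9% of windows at transcription termination sites (TTS). Those listed again in F3 were 11.9%, 12.1%, 11.7%, 12.2%, 11.5% and 11.4% in the same order. The far intergenic share lay inside the range of the other classes in both comparisons. Of the F3 windows listed again in F1, it was the lowest, at 13.6% compared with 14.1%, 14.1%, 15.2%, 15.3% and 14.6% in the order above. For F2 windows listed in F1 or F3, and F3 windows listed in F2, it was inside the range.

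**Figure D3:**
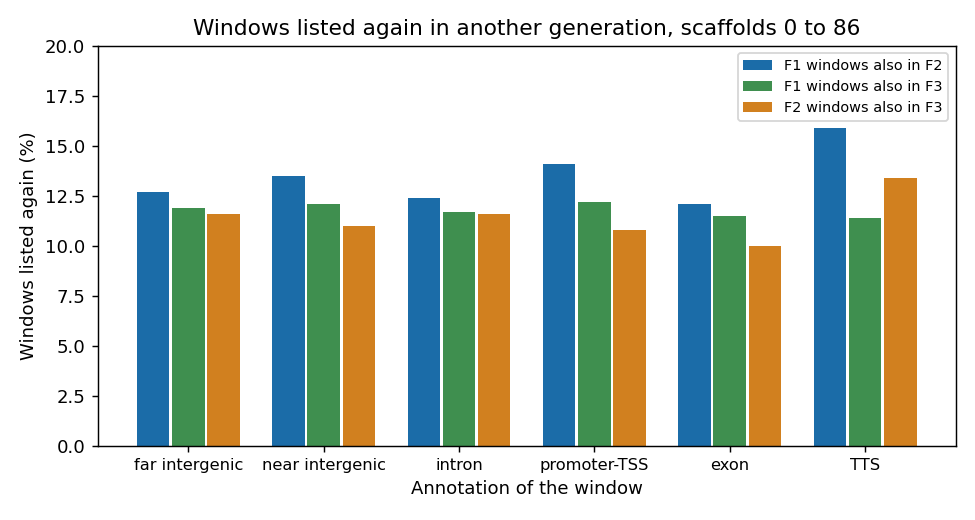
Percentage of windows of 1 generation listed again in another (y axis), by annotation of the window (x axis), on scaffolds 0 to 86; each bar colour is a pair of generations. Bars of far intergenic windows stand at 12.7%, 11.9% and 11.6%, in the range of the bars of windows near and inside genes.

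Recurrence did not change steadily with distance from the gene. Of the F1 windows at 50 to 100 kb, 12.4% were listed again in F2, compared with 13.3% at 100 to 200 kb, 12.2% at 200 to 500 kb and 14.3% beyond 500 kb, where the share rests on 665 windows. Of the F3 windows, 14.5%, 13.6%, 11.6% and 15.5% were listed in F2 in the same order. When a region was counted as shared if it had at least 1 base in common with a region of the other generation, the highest of the shares rose to 22.5%, for F3 regions found in F1. Allowing a gap of up to 500 bases placed them between 27.6% and 31.8%.

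The 306 windows listed in all 3 generations lay in 297 separate regions, on 76 of the 87 scaffolds, with 275 different nearest genes. They were scattered, and 288 of the regions were single windows. The median distance of the 306 windows, 124 kb, and the quartiles, 81.7 and 231 kb, were much like those of all far intergenic windows. Upstream of the TSS lay 169 of them (55.2%). A listing of the same window in all 3 tables does not say that methylation differed in the same direction, since direction was not analysed here. The closest of the 306 to a gene was 50302 bases away, and 25 were more than 500 kb away. Of all far intergenic windows on the shared scaffolds, 665 of 12871 lay that far in F1, 742 of 13093 in F2 and 612 of 11282 in F3. These were smaller shares than among the 306, and the difference was not tested.

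The farthest of the windows listed in all 3 generations are named here because they are the most remote from any TSS annotated on their scaffold. Scaffold_48:14254301-14254400 was 1147 kb downstream of the nearest TSS. Scaffold_23:24805051-24805150 was 982 kb upstream of its nearest TSS, and scaffold_23:24688551-24688650 was 866 kb upstream of the same one. Scaffold_22:58501-58600 and scaffold_22:125051-125150 were 954 and 888 kb downstream of a shared nearest gene. Scaffold_19:18774151-18774250 was 899 kb upstream. By position, the windows of scaffold_22 lay near the start of their scaffold. The window of scaffold_48 lay near the end of the 14.3 Mb that listed windows spanned there. Genes beyond such ends are not counted, so these distances may be too long. Those of scaffold_23 and scaffold_19 lay inside spans of 32.2 and 37.0 Mb.

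Only 9 of the 297 regions joined 2 windows, each listed in all 3 generations. Most remote among them was scaffold_23:24642801-24642950, 820 kb upstream of its nearest TSS, followed by scaffold_19:13247401-13247550 at 570 kb downstream. Scaffold_77:5152151-5152350 was 268 kb downstream, and scaffold_76:4307451-4307600 was 189 kb upstream. Scaffold_7:20085651-20085800 was also upstream, at a slightly shorter distance. The other 4 were scaffold_2:24721001-24721150 (123 kb downstream), scaffold_49:2185451-2185600 (99.9 kb downstream), scaffold_0:22441151-22441300 (63.7 kb downstream) and scaffold_30:14121501-14121650 (55.2 kb upstream).

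The nearest gene of each region was given as an Ensembl identifier, and the tables do not pair these with gene names, so that functions cannot be stated. Being nearest does not make a gene the target of an enhancer. The far intergenic regions had 4135 different nearest genes in F1, 3537 in F2 and 3956 in F3, with a median of 2 regions per gene. On the shared scaffolds there were 3527, 3537 and 3338, so the larger counts of F1 and F3 went with their additional scaffolds. Over all scaffolds, genes with a single region were 37.7%, 38.8% and 40.7% of the nearest genes. Genes with 10 regions or more numbered 183 in F1 and 124 in F2, with F3 in between, and in F1, F2 and F3 they held 21.3%, 16.5% and 18.5% of all far intergenic regions. On the shared scaffolds such genes numbered 121, 124 and 81.

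Many nearest genes were common to the generations. A nearest gene pools all windows around it, so its share cannot be set against that of single windows, and the share that the position of the genes alone would give was not analysed here. On the 87 scaffolds, 2734 genes were nearest to a region in both F1 and F2, or 77.5% of the F1 genes and 77.3% of the F2 genes. The pair of F1 and F3 shared 2652 (75.2% and 79.4%), and F2 and F3 shared 2622 (74.1% and 78.5%). In all 3 generations there were 2251.

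The genes with the most far intergenic regions were bordered by gene deserts, as far as their scaffolds reach. This follows from the count, since many such regions can gather at a nearest gene only beside a long stretch without another annotated TSS. ENSCPOG00000028670 on scaffold_154 had 70 regions in F1 and 104 in F3, spread from 1646 kb upstream to 139 kb downstream of its TSS in F1. ENSCPOG00000025433 on scaffold_149 had 58 and 70, reaching 2126 kb downstream in F1 and 2098 kb in F3. The F2 table did not cover these scaffolds. Of the 204 distinct windows nearest to ENSCPOG00000028670, 13 were listed in both F1 and F3, which was 6.37%, and of the 139 nearest to ENSCPOG00000025433, 10 were, or 7.19%. Over all far intergenic windows on scaffolds outside the F2 table, 420 of 6020 distinct windows (6.98%) were listed in both, so these shares were near the background.

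On scaffolds that all tables cover, ENSCPOG00000006637 on scaffold_22 had the most regions summed over the generations, with 46 in F1, 47 in F2 and 30 in F3. All of them were downstream of its TSS, between 319 and 986 kb in F1, 267 and 981 kb in F2, and 357 and 986 kb in F3. Of the 134 distinct windows there, 30 were listed in 2 generations and 3 in all 3, together 24.6%. ENSCPOG00000025834 on scaffold_23 had 22, 36 and 33 regions, which reached 982 kb upstream in every generation. Of its 93 distinct windows, 12 were in 2 generations and 5 in all 3, together 18.3%. Over all far intergenic windows on the shared scaffolds, 12.4% of 32862 distinct windows were in 2 or 3 generations. Both genes were chosen for their number of regions summed over the generations, and the difference from that share was not tested. The windows at 954 and 888 kb on scaffold_22 and those at 982, 866 and 820 kb on scaffold_23 named above belong to these deserts.

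**Figure D4:**
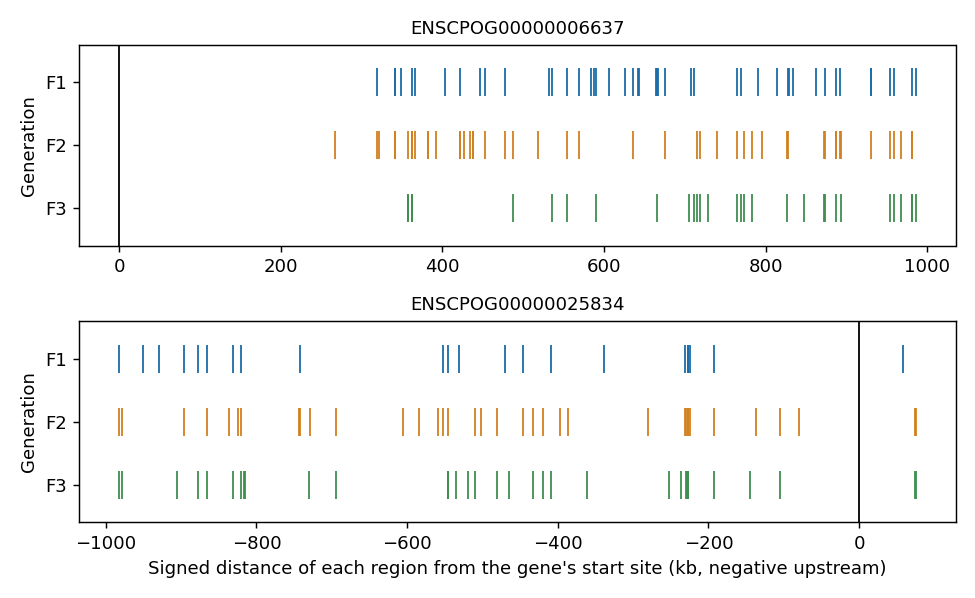
Far intergenic regions by signed distance from the TSS (x axis, kb, negative upstream) of ENSCPOG00000006637 (top) and ENSCPOG00000025834 (bottom), with 1 row of ticks for each generation and the TSS as a vertical line. In the top panel all ticks lie between 267 and 986 kb downstream, and in the bottom panel most are upstream, out to 982 kb in each generation.

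Single CpGs were listed in separate tables, made from the same capture without windows. Far intergenic CpGs numbered 23448 in F1, 13729 in F2 and 23058 in F3, and of these 1497 (6.38%), 1052 (7.66%) and 1627 (7.06%) lay inside a far intergenic window of the same generation. The CpG tables covered 1201, 87 and 403 scaffolds, and on the 87 shared scaffolds the far intergenic CpGs numbered 12135, 13729 and 11421, with F2 the highest. Of these, 7.95%, 7.66% and 8.62% were inside a far intergenic window. Read from the windows, 1270 of the F1 windows (7.88%), 941 of F2 (7.19%) and 1347 of F3 (9.31%) contained at least 1 listed CpG. On the shared scaffolds the shares were 6.46%, 7.19% and 7.53%. Most windows and most CpGs listed far from genes were thus not listed at the other scale. A window with several listed CpGs was rare, with 2.08%, 1.55% and 2.57% holding 2 or more and at most 10, 7 and 12.

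The share of windows holding a listed CpG was near that of intergenic windows closer to genes (7.42%, 7.02% and 9.34%). Intronic windows held one less often, in 5.28%, 5.73% and 6.51% of cases. Promoter windows, at 10.4% in F2 and 15.3% in F3 with F1 in between, and TTS windows, at 17.5%, 15.4% and 17.2%, held one more often. The number of CpGs that each window holds in all was not analysed here. Of the 306 windows listed in all 3 generations, 36 held a listed CpG in F1, 32 in F2 and 49 in F3. Of all far intergenic windows on the shared scaffolds, 831 of 12871 did in F1, 941 of 13093 in F2 and 849 of 11282 in F3. These were smaller shares than among the 306, and the difference was not tested.

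Single CpGs were listed again at higher shares than exactly matching windows. On the 87 scaffolds, F1 and F2 had 3135 far intergenic CpGs in common, 25.8% of the F1 CpGs and 22.8% of the F2 CpGs. F1 and F3 had 2843 in common (23.4% and 24.9%), and F2 and F3 had 3031 (22.1% and 26.5%). In all 3 tables there were 1380. Among windows, the corresponding shares lay between 11.6% and 13.6%.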

How the data were processed

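DNA was captured with custom probes for promoters, peaks of phosphorylated RNA polymerase II and H3K4me1 enhancers, treated with bisulfite and sequenced. Per the labels, the submitters' processing notes and the study's methods, the authors used Trimmomatic 0.32, BSMAP 2.74 with cavPor3, Picard 1.93, a minimum of 10 reads per CpG, methylKit 1.4.0 in R 3.2.3 and HOMER 4.6. The deposited tables hold positions in bases, distances to the TSS and the authors' own comparison (difference, p and q), whose values were not used except to find the smallest difference listed. Window starts in F2 and F3 and CpG starts in F1 were shifted by 1 base to a common convention. Windows were counted, merged and intersected in Python 3.11.15 (numpy 2.4.6, pandas 2.3.3, matplotlib 3.10.9), and the merging and overlap steps were tested on simulated data. No test was run. The members and lists were chosen with earlier results of these data known. RNA counts were not used, because the genes there are given by symbol and the windows by Ensembl identifier, with no match between them in the tables at hand. No sequence is printed, since no genome of this build was used here. Regions to name were the widest, the farthest, and those in all 3 generations that were farthest or joined 2 windows. Genes were named by their number of regions, as identifiers in place of the symbols first planned.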

Additional observations from a re-analysis of the deposited data

How the results depend on the processing

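With a distance above 100 kb in place of 50 kb, the far intergenic windows numbered 10153 in F1, 8231 in F2 and 9281 in F3. The windows shared were then 1044 in F1 and F2, 1215 in F1 and F3 and 935 in F2 and F3, and 190 were in all 3 generations. These counts are over all scaffolds, where F1 and F3 shared 1949 windows beyond 50 kb, the value that alternatives for this pair were set against. Counting regions that share at least 1 base, 640 were in all 3. On the scaffolds of the F2 table, an alternative added after seeing the data, far intergenic CpGs numbered 12135 in F1 and 11421 in F3, and windows beyond 1 Mb 26 in F1 and 35 in F3. The remaining 21 values (a distance above 25 kb for each generation's count, merged regions, regions in place of windows for the pairs, and the other counts on the scaffolds of the F2 table) were within 1.5 times of those reported. Among these, the counts of F2 and of windows shared with F2 could not change on the scaffolds of the F2 table, since F2 had no others. No paired analysis was possible because no test was run and values per animal were not analysed here. The alternatives planned for RNA (other tests and scalings, filter, replicate block, left-out libraries), and for the RNA of nearest genes, were not run, nor were the planned sequence, repeat and GC descriptions. Counts depend on the scaffolds each table holds and on a listing made by the authors, and read depth, which limits what could be listed, was not analysed here.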

Other observations

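The F3 table of single CpGs held 74064 lines, of which 4062 repeated an earlier line, leaving 70002 distinct CpGs; repeats were counted once. The single-CpG tables covered 1201 scaffolds in F1, 403 in F3 and the same 87 as the windows in F2.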
